A study of Mus musculus with 53 samples.

Results

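Phospholipases A2 and the enzymes that put fatty acids back onto lysophospholipids were followed through 8 groups of mouse sciatic nerve (SCN). The genes were taken by symbol, as a set chosen with earlier results of these data known: Pla2g2d, Pla2g2e, Pla2g4a, Pla2g5, Pla2g6, Pla2g7 and Pla2g15 for the phospholipases A2, and Lpgat1 and Lpcat3 for the acyltransferases. All 9 of 9 were found among the 49568 genes listed per sample. The study profiled 53 SCN samples by RNA-seq, and all came from C57BL/6J mice, described as male, with no transgene or deletion in any group. SD mice stayed on a standard diet. HFD mice, the prediabetes model, ate a high-fat diet with 60% of kcal as fat from 5 weeks of age. HFD-STZ mice, the type 2 diabetes model, ate the same diet and were given streptozotocin (STZ), a toxin of pancreatic beta cells, by intraperitoneal injection at 12 weeks of age, at 75 mg/kg and then at 50 mg/kg. HFD-DR and HFD-STZ-DR mice went through dietary reversal (DR), a return to the control diet for 8 weeks starting at 16 weeks of age. The 16-week samples numbered 5 for SD, 7 for HFD and 5 for HFD-STZ mice. The 24-week samples numbered 8 for SD, 7 for HFD and 8 for HFD-STZ mice, and the reversal groups 7 for HFD-DR and 6 for HFD-STZ-DR. The labels do not say that each sample is a separate mouse, so p-values measure the spread between these samples.

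A phospholipase A2 cuts the fatty acid from the middle position of a membrane phospholipid and leaves a lysophospholipid. The freed acid is often arachidonic acid, the precursor of prostaglandins and leukotrienes, and the lysophospholipid can act as a signal or be rebuilt by an acyltransferase. In peripheral nerve, phospholipases A2 are known for their part in the breakdown of myelin after injury, where lysophosphatidylcholine is itself a demyelinating lipid.

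The genes lie as follows on GRCm38, the mm10 build of the files, in the GENCODE M21 annotation. Pla2g2d (chr4:138775735-138782046), Pla2g5 (chr4:138799244-138863482) and Pla2g2e (chr4:138877942-138882817) stand in 1 cluster of secreted phospholipase genes on chromosome 4. Pla2g4a lies at chr1:149829618-149961290, Pla2g6 at chr15:79286228-79328390, Pla2g7 at chr17:43568098-43612201 and Pla2g15 at chr8:106150399-106164715. Lpgat1 lies at chr1:191717834-191784255 and Lpcat3 at chr6:124663027-124704418. Of the exon bases of Pla2g7, 11.0% overlap the antisense gene 1700071M16Rik, and of those of Lpcat3, 10.2% overlap Emg1 on the opposite strand. The libraries did not keep strand, so reads of these overlaps cannot be told apart.

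Group means of Pla2g2e and Lpgat1 spanned 1.94 and 1.70 on the log2 scale, more than those of any other of the 9 genes, and their promoters are shown for that reason. RefSeq windows of 300 bases (GRCm38.p6), with 250 bases before the start of transcription and 50 after, were searched on both strands for the TATA box (TATAAA), the CCAAT box (by its own letters), the GC box (GGGCGG) and the hexamer that nuclear receptors bind (AGGTCA). The Pla2g2e window held 50.3% G and C, 4 CpG and 1 AGGTCA, a motif present in 16.3% of all 32851 windows. Lpgat1 had 2 windows. The first held 77.0% G and C, 43 CpG and 4 GC boxes, a motif present in 35.7% of windows. The second, at chr1:191718145-191718444, held 79.7% G and C, 39 CpG and 2 GC boxes. Medians over all windows were 52.7% and 7 CpG. The letters below run from the start of the Pla2g2e window and of the first Lpgat1 window to the base before the first annotated exon. They cover 250 bases at chr4:138877692-138877941 and 60 bases at chr1:191717774-191717833, both on the plus strand. Capitals mark AGGTCA, which overlaps no other motif there. The 4 GC boxes of the first Lpgat1 window lie outside the 60 bases printed.
Pla2g2e: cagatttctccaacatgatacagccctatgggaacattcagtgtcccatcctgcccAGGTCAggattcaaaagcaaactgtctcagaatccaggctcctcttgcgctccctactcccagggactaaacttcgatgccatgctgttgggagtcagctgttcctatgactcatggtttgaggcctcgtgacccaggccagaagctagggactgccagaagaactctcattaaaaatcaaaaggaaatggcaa
Lpgat1: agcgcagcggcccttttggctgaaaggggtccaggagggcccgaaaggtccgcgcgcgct
A motif match is a description of these letters and was not tested as a site.

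Values are log2 expression values as deposited. The correlation between 2 samples over all genes ran from 0.916 to 0.9941, and no pair of samples was identical. Read depth per sample is unknown, because the files hold no counts. The tissue label was checked against 6 Schwann cell markers, whose mean log2 value stood between 16.73 and 17.66 in every sample. Skeletal muscle markers varied widely, with a mean log2 value between 6.87 and 17.39, and adipocyte markers between 7.75 and 13.89. In bulk nerve, fewer cells of a type and less RNA per cell cannot be told apart.

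To set the 9 genes beside each other, the log2 value was reduced by the log2 of the exon length in kilobases. This takes the deposited values as not already scaled by gene length, which the sources do not state, so the order below rests on that assumption. Pla2g7, which encodes the lipoprotein-associated enzyme that inactivates platelet-activating factor (PAF), stood highest at a log2 level per kilobase of 11.62 ± 0.21 (SD, n = 53). Lpcat3 (8.97 ± 0.23), Pla2g5 (8.81 ± 0.25), Lpgat1 (8.72 ± 0.82) and Pla2g15 (8.56 ± 0.37) formed a middle group on the log2 scale per kilobase, with means closer together than the SD of Lpgat1. Pla2g2d (7.34 ± 0.55) and Pla2g6 (7.30 ± 0.20) came next. Pla2g4a (5.39 ± 0.66) and Pla2g2e (4.01 ± 0.99) were the lowest per kilobase, and Pla2g2e lay under the limit used for testing, a log2 value of 3.32, in 16 of 53 samples.

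**Figure D1:**
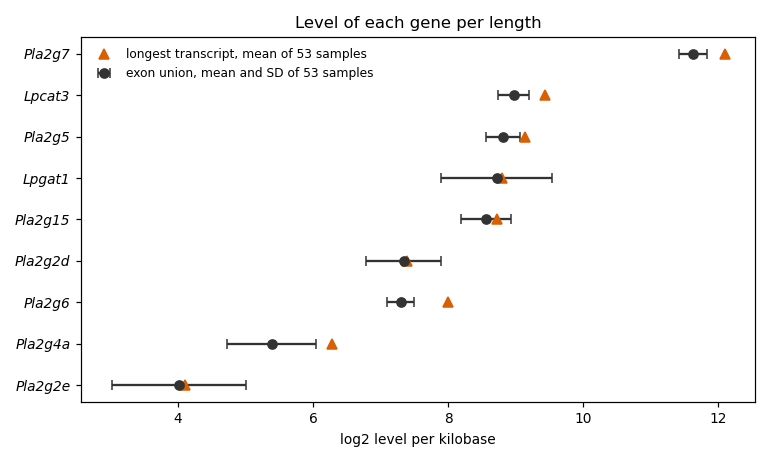
Level of each gene per kilobase of exon (x axis, log2), as mean ± SD over 53 samples (black) and, as triangles, over the length of the longest transcript. Pla2g7 stands apart at 11.62 and Pla2g2e is lowest at 4.01.

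Pla2g2e, a secreted group II phospholipase A2 induced in adipose tissue by obesity, was higher in both high-fat diet models than in SD nerves and lower after dietary reversal. In SD nerves at 16 weeks, its log2 values were 2.57, 3.16, 3.59, 2.81 and 2.60. In HFD nerves of that age, the lowest, median and highest log2 values were 3.32, 4.71 and 5.61. HFD-STZ samples at 16 weeks had log2 values of 3.79, 2.78, 3.43, 4.07 and 4.70. All but 1 HFD sample lay above every SD sample, while HFD-STZ samples lay between and overlapped both. At 24 weeks, SD samples ran from 2.60 through a median of 3.26 to 3.63 (log2). HFD samples ran from 3.57 through 4.83 to 6.21, and HFD-STZ samples from 3.25 through 4.85 to 5.49. In each of these models, 6 samples stood above the highest SD sample. After reversal, HFD-DR samples ran from 2.92 through 3.43 to 4.31 and HFD-STZ-DR samples from 2.66 through 3.03 to 3.44 on the log2 scale. Both reversal groups lay in or near the SD range.

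As differences of means, Pla2g2e was higher in HFD than in SD nerves by 1.74 on the log2 scale at 16 weeks (SE 0.37, 3.33-fold, exact permutation p = 0.00379) and by 1.70 at 24 weeks (SE 0.37, 3.24-fold, exact permutation p = 0.000466). Neither passed limma's adjusted test, in which p-values of all genes are corrected by the Benjamini-Hochberg procedure (adjusted p = 0.245 and 0.0917). Pla2g2e was kept by the limit on low means in the comparisons with SD nerves, and in that of HFD-STZ-DR with HFD-STZ nerves, only through the disease groups or HFD-DR nerves, since its SD and HFD-STZ-DR means lay under the limit of 3.32, and its limma calls are given as a description. With all 8 groups in 1 limma fit, the 24-week difference of Pla2g2e passed (adjusted p = 0.0128). With 1 sample left out, limma called it in 2 of 15 fits, and its highest adjusted p was 0.221. These 2 fits left out HFD replicate 3 (log2 value 3.81, limma adjusted p = 0.0481) or HFD replicate 5 (3.57, limma adjusted p = 0.0451). These were the lowest HFD samples, so passing follows from the values removed. HFD-STZ nerves exceeded SD nerves in Pla2g2e by 0.81 at 16 weeks (SE 0.35, exact permutation p = 0.0635) and by 1.42 at 24 weeks (SE 0.33, 2.68-fold, exact permutation p = 0.00249, limma adjusted p = 0.318). The latter passed limma's adjustment in 1 of 16 fits with 1 sample left out, and its highest adjusted p was 0.693. That fit left out HFD-STZ replicate 6, the lowest HFD-STZ sample (log2 value 3.25, limma adjusted p = 0.0434). Pla2g2e was lower in HFD-DR than in HFD nerves by 1.35 (log2; SE 0.39, 2.55-fold, exact permutation p = 0.0111, limma adjusted p = 0.524). It was lower for HFD-STZ-DR than HFD-STZ nerves by 1.55 (SE 0.36, 2.93-fold, exact permutation p = 0.00433, limma adjusted p = 0.134). This last difference passed limma in the fit of all 8 groups (adjusted p = 0.0425). With 1 sample left out, it passed limma only without HFD-STZ replicate 6 (adjusted p = 0.0159) or replicate 7 (adjusted p = 0.0333), the lowest HFD-STZ samples. Against SD nerves at 24 weeks, Pla2g2e differed by 0.34 in HFD-DR nerves (log2; SE 0.23, exact permutation p = 0.164) and by -0.13 in HFD-STZ-DR nerves (SE 0.21, exact permutation p = 0.534), and HFD-STZ-DR nerves were not compared by limma because the gene's mean lay under the limit.

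**Figure D2:**
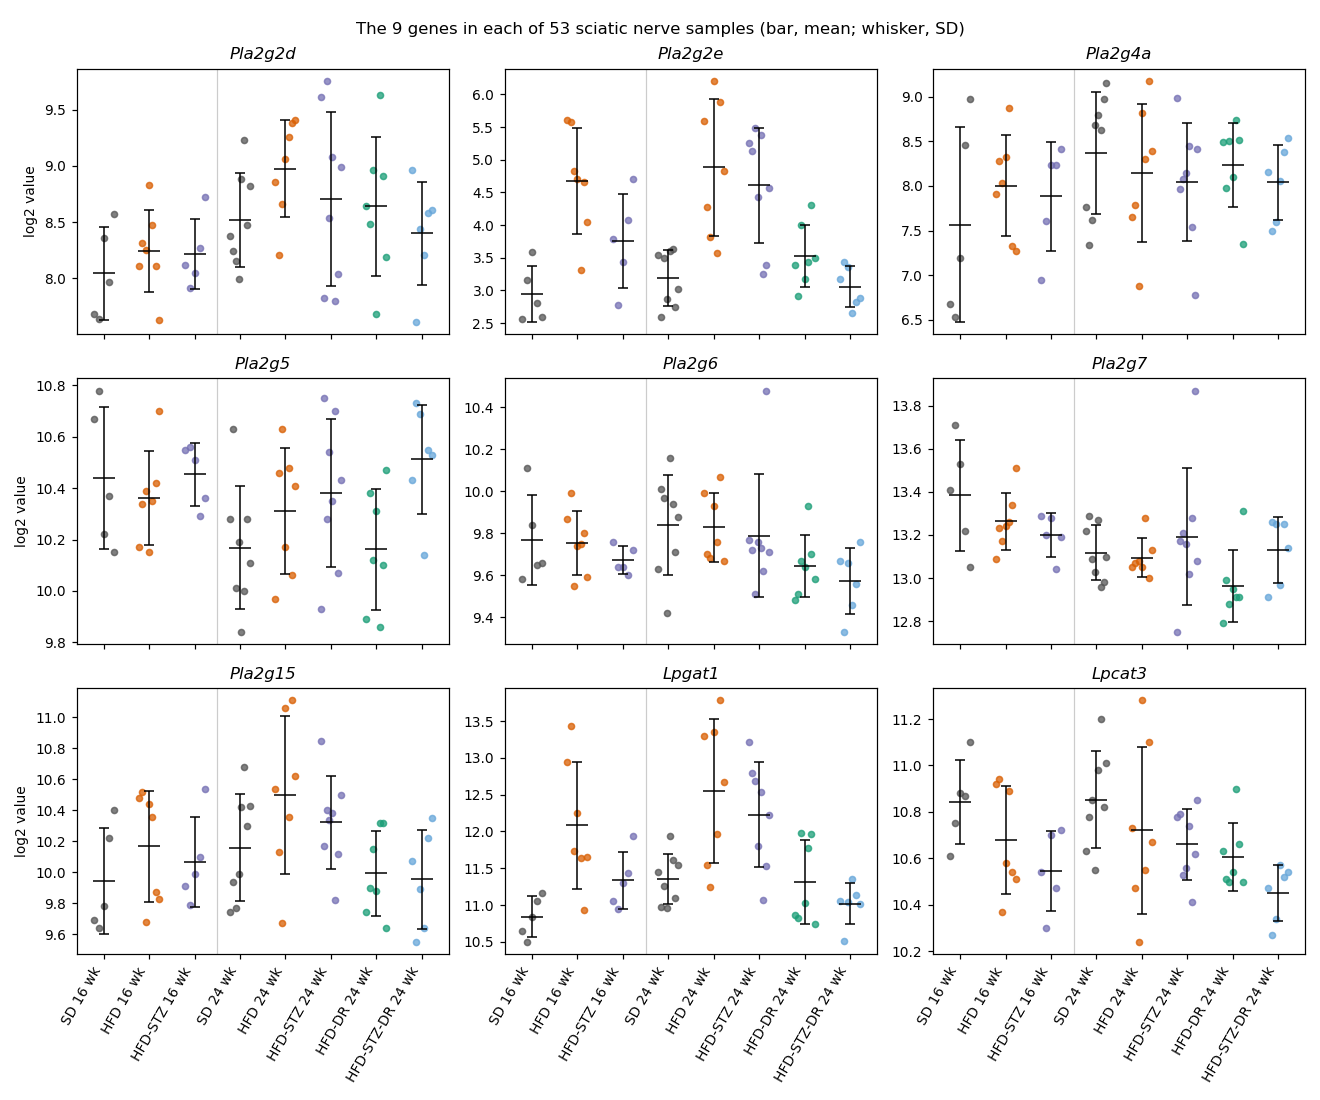
Log2 value (y axis, a scale of its own for each gene) of the 9 genes in every sample of the 8 groups (x axis, 16-week groups left of the grey line), with the group mean as a bar and the SD as whiskers. Pla2g2e and Lpgat1 stand higher in the HFD and HFD-STZ groups at 24 weeks than in the SD and reversal groups, with overlap between samples.

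Lpgat1, which encodes a lysophospholipid acyltransferase of the endoplasmic reticulum first described for lysophosphatidylglycerol, also had its highest mean in HFD nerves and its lowest in SD nerves at 16 weeks. SD samples at 16 weeks had log2 values of 10.65, 10.50, 10.84, 11.06 and 11.17, and HFD samples ran from 10.93 through 11.73 to 13.43. HFD-STZ samples at 16 weeks had log2 values of 11.05, 10.95, 11.30, 11.43 and 11.94. Again all but 1 HFD sample lay above every SD sample. At 24 weeks, SD samples of Lpgat1 ran from 10.96 through 11.35 to 11.94 (log2). HFD samples ran from 11.25 through 12.67 to 13.78, and HFD-STZ samples from 11.07 through 12.38 to 13.21. In both models, 5 samples exceeded the highest SD sample, and the spread between HFD samples (SD 0.98) was wider than between SD samples (SD 0.34). HFD-DR samples ran from 10.74 through 11.03 to 11.98, and HFD-STZ-DR samples from 10.51 through 11.04 to 11.36.

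Lpgat1 was higher in HFD than in SD nerves by 1.24 (log2) at 16 weeks (SE 0.35, 2.36-fold, exact permutation p = 0.0114, limma adjusted p = 0.430) and by 1.20 at 24 weeks (SE 0.33, 2.29-fold, exact permutation p = 0.00622, limma adjusted p = 0.228). HFD-STZ nerves exceeded SD nerves in Lpgat1 by 0.49 at 16 weeks (SE 0.19, exact permutation p = 0.0556) and by 0.87 at 24 weeks (SE 0.26, 1.83-fold, exact permutation p = 0.00948, limma adjusted p = 0.623). After reversal it was lower by 1.24 in HFD-DR than in HFD nerves (SE 0.38, 2.36-fold, exact permutation p = 0.0192, limma adjusted p = 0.560). In HFD-STZ-DR nerves it was lower than in HFD-STZ nerves by 1.21 (SE 0.28, 2.32-fold, exact permutation p = 0.00400, limma adjusted p = 0.144). With 1 sample left out, that comparison of Lpgat1 passed limma only without HFD-STZ replicate 6 (adjusted p = 0.0126) or replicate 7 (adjusted p = 0.0494), the lowest HFD-STZ samples. Against SD nerves at 24 weeks, the difference of Lpgat1 was -0.04 in HFD-DR nerves (log2; SE 0.22, exact permutation p = 0.862) and -0.34 in HFD-STZ-DR nerves (SE 0.16, exact permutation p = 0.0706).

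**Figure D3:**
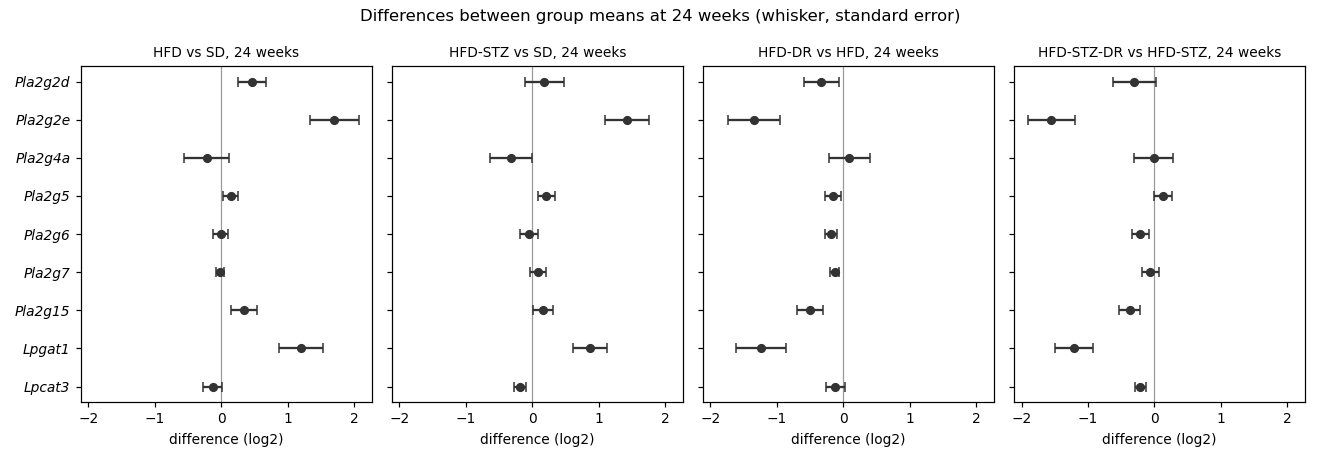
Difference of group means (x axis, log2; whiskers, standard error) for each gene in the comparisons of disease with SD and of reversal with disease at 24 weeks. Pla2g2e and Lpgat1 lie farthest to the right in HFD and HFD-STZ nerves (1.70 and 1.20, 1.42 and 0.87) and farthest to the left after reversal.

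Adipocyte markers moved with both genes. The mean log2 value of 6 adipocyte markers (Adipoq, Plin1, Cidec, Fabp4, Lep and Pparg, none at or near 0) ran from 9.68 to 12.35 in SD nerves at 24 weeks, from 11.19 to 13.89 in HFD nerves and from 10.51 to 13.48 in HFD-STZ nerves. At 16 weeks, 6 of 6 were higher in HFD and in HFD-STZ than in SD nerves, with mean log2 differences of 2.62 and 1.20. At 24 weeks, 6 of 6 were again higher in both models, by 1.19 and 0.93, and 6 of 6 lower in each reversal group than in its model, with mean log2 differences of -1.59 for HFD-DR and -2.33 for HFD-STZ-DR nerves, and 0 of 6 passed limma's adjusted test in any of these. Over the 53 samples, the Pearson correlation with this marker level was 0.89 for Lpgat1 and 0.77 for Pla2g2e, and with group means removed it was 0.82 and 0.65. These samples share tissue and normalisation, so the correlations are a description. The mean log2 value of 5 dendritic and lymphoid cell markers (Ccr7, Flt3, Xcr1, Cd3e and Cd79a) was low, from 3.84 to 5.60 over all samples, and it correlated at 0.68 with Pla2g2e and at 0.66 with Lpgat1 (0.50 and 0.45 with group means removed). It was higher in HFD than in SD nerves by 0.64 at 16 weeks and by 0.48 at 24 weeks. In each, 5 of 5 markers were higher. Between HFD-DR and HFD nerves the level differed by -0.42, with 5 of 5 lower. HFD-STZ nerves exceeded SD nerves in it by 0.33 at 16 weeks, with 5 of 5 higher. At 24 weeks that difference was 0.2, with 3 markers higher and 2 lower. Between HFD-STZ-DR and HFD-STZ nerves the level differed by -0.25, with 1 marker higher and 4 lower. Ccr7 lay under the limit used for testing in 36 of 53 samples, Xcr1 in 4 and Cd3e in 1. Macrophage markers correlated at 0.68 with Lpgat1 and at 0.51 with Pla2g2e. From 16 to 24 weeks in SD nerves, the adipocyte marker level was higher by 1.81 (log2), while Pla2g2e was higher by 0.24 (SE 0.24) and Lpgat1 by 0.51 (SE 0.17, exact permutation p = 0.0202, limma adjusted p = 0.435). With age Lpgat1 was also higher by 0.90 in HFD-STZ nerves (SE 0.32, exact permutation p = 0.0303, limma adjusted p = 0.309). In HFD nerves its age difference was 0.47 (SE 0.43, exact permutation p = 0.358). The adipocyte marker level was higher there by 1.55 and 0.39. The part of RNA from these cell types in the differences of Pla2g2e and Lpgat1 was not tested.

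**Figure D4:**
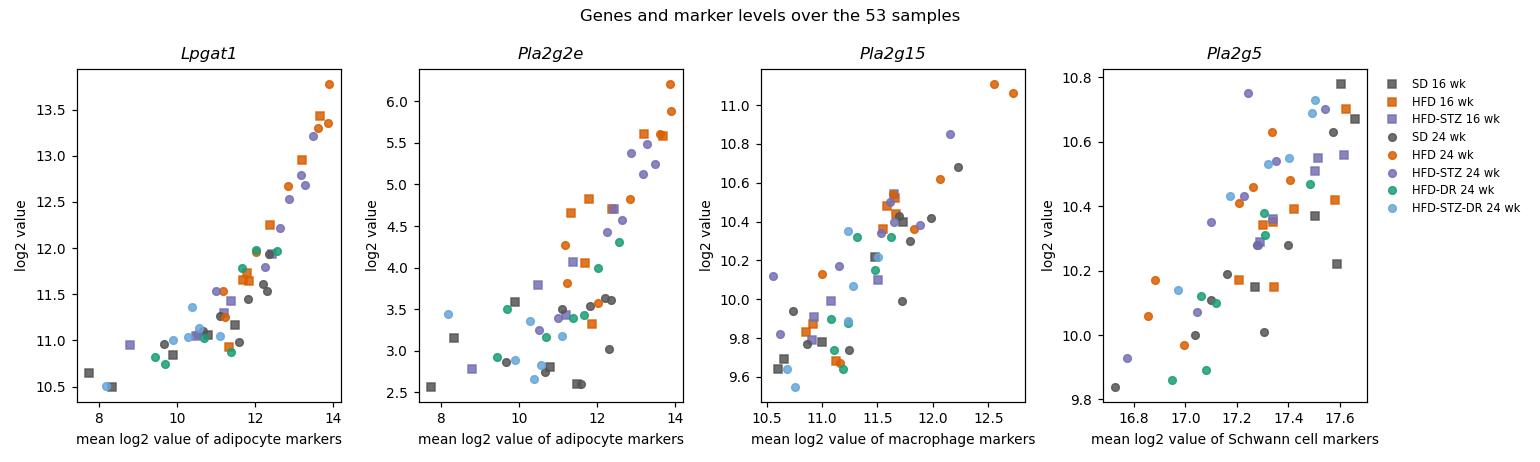
Log2 value of Lpgat1, Pla2g2e, Pla2g15 and Pla2g5 (y axis) against the mean log2 value of the named cell type's markers (x axis) in 53 samples, with squares for 16 weeks and circles for 24 weeks. Pearson correlations are 0.89, 0.77, 0.87 and 0.79, from left to right.

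Library numbers in the sample titles fall into 8 runs of consecutive numbers, each with at most 1 sample of a 24-week group, which allows differences within a run. They are not labelled as a batch. Within the 7 runs with both groups, Pla2g2e was higher in HFD than in SD nerves in 6 runs and lower in 1, with a mean difference of 1.75 ± 1.23 (log2, SD over runs), and Lpgat1 was higher in 7 of 7 runs, by 1.21 ± 0.99. For HFD-STZ against SD nerves, Pla2g2e was higher in 7 of 8 runs (1.42 ± 0.90) and Lpgat1 in 7 of 8 (0.87 ± 0.78). For HFD-STZ-DR against HFD-STZ nerves, Pla2g2e was lower in 6 of 6 runs (-1.41 ± 0.91) and Lpgat1 in 5 of 6 (-1.14 ± 0.93). For HFD-DR against HFD nerves, Pla2g2e was lower in 5 of 6 runs (-1.34 ± 1.48) and Lpgat1 in 4 of 6 (-1.14 ± 1.43). By an exact 2-sided sign-flip test over runs, unadjusted, p for Pla2g2e and Lpgat1 was 0.0312 and 0.0156 for HFD against SD nerves (the smallest p that 7 runs allow is 0.0156) and 0.0156 and 0.0234 for HFD-STZ against SD. For reversal, where 6 runs allow no p under 0.0312, it was 0.125 and 0.188 in the HFD model and 0.0312 and 0.0625 in the HFD-STZ model, so that 3 of these 4 differences, with exact permutation p under 0.05 between groups, did not pass over runs. Among the other genes, the same exact test gave p = 0.0156 for Pla2g2d in HFD against SD nerves (higher in 7 of 7 runs). The reversal differences of Pla2g15 had an exact p = 0.188 over runs in both models, and that of Lpcat3 in the HFD-STZ model had p = 0.0938. The sixth run held the exceptions for HFD-STZ against SD nerves, with a difference of -0.38 for Pla2g2e and -0.54 for Lpgat1. It also held those of Pla2g2e for HFD against SD nerves (-0.06) and HFD-DR against HFD nerves (0.74). For Lpgat1 it held the exception for HFD-STZ-DR against HFD-STZ nerves (0.06). The exceptions of Lpgat1 for HFD-DR against HFD nerves lay in the third (0.44) and sixth runs (0.01).

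**Figure D5:**
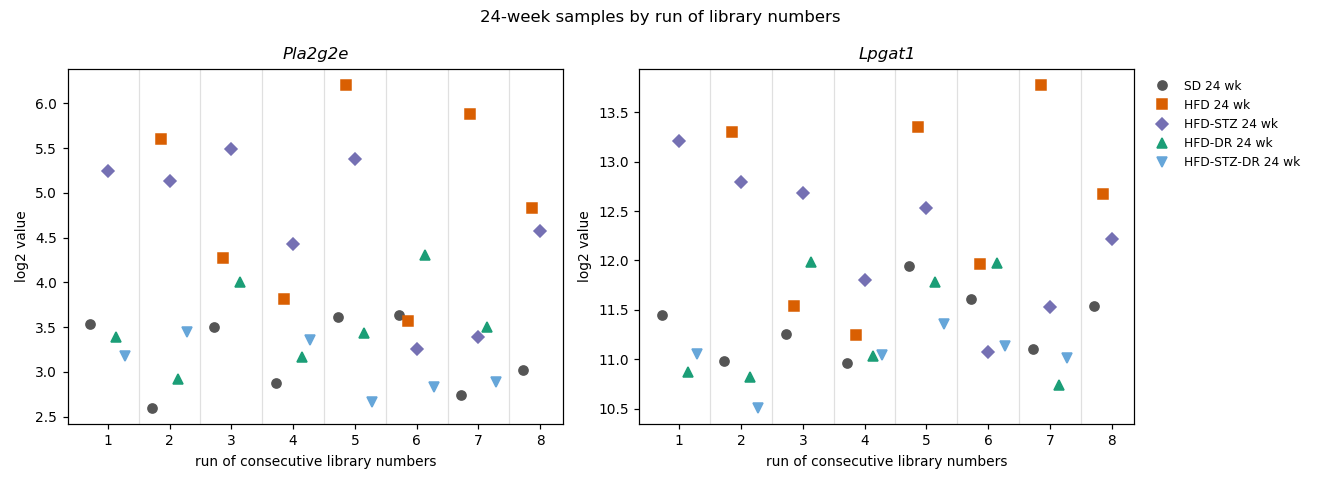
Log2 value (y axis) of Pla2g2e and Lpgat1 in the 24-week samples, by run of consecutive library numbers (x axis), with a marker for each group. The HFD sample lies above the SD sample in 6 of 7 runs for Pla2g2e and in 7 of 7 for Lpgat1, and the HFD-STZ sample of the sixth run lies below the SD sample for both genes.

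Pla2g2d, a secreted phospholipase A2 known from dendritic cells and macrophages of lymphoid tissue, had its lowest means at 16 weeks and its highest in HFD nerves at 24 weeks. At 24 weeks, SD samples ran from 7.99 through 8.43 to 9.23 (log2), HFD samples from 8.21 through 9.06 to 9.41 and HFD-STZ samples from 7.80 through 8.76 to 9.76, so that all groups overlapped. Between 16 and 24 weeks its mean was higher in HFD nerves by 0.73 (log2; SE 0.20, exact permutation p = 0.00874, limma adjusted p = 0.395), with 5 of the 24-week samples above every 16-week sample. The same age difference was 0.47 in SD nerves (SE 0.22, exact permutation p = 0.0723) and 0.49 in HFD-STZ nerves (SE 0.33, exact permutation p = 0.213). HFD exceeded SD nerves at 24 weeks by 0.46 (SE 0.21, exact permutation p = 0.0620). Its level correlated at 0.74 with the mean of 6 macrophage markers. From 16 to 24 weeks in HFD nerves, the macrophage marker level was higher by 0.51, with 6 of 6 markers higher, and its part in the difference of Pla2g2d was not tested.

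Pla2g5, a secreted phospholipase A2 that acts on phosphatidylcholine, stayed between log2 values of 9.84 and 10.78 in all 53 samples. HFD-STZ-DR nerves had the highest mean (10.51 ± 0.21, n = 6) and HFD-DR nerves the lowest (10.16 ± 0.24, n = 7). The HFD-STZ-DR mean was higher than that of SD nerves by 0.34 (log2; SE 0.12, exact permutation p = 0.0200, limma adjusted p = 0.412) and higher than that of HFD-DR nerves by 0.35 (SE 0.12, exact permutation p = 0.0210, limma adjusted p = 0.999). Both comparisons share the HFD-STZ-DR samples. Of the 9 genes it was the closest to the Schwann cell markers, with a correlation of 0.79 over 53 samples and 0.86 with group means removed, and the marker level was higher by 0.11 and 0.12 in these comparisons. The part of the Schwann cell share in them was not tested.

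Pla2g4a, the cytosolic phospholipase A2 that releases arachidonic acid in response to calcium, varied widely between samples, from a log2 value of 6.53 to 9.18. Its group means ran from 7.57 to 8.37 on the log2 scale, and the pooled SD within groups was 0.67. SD samples at 16 weeks had log2 values of 6.68, 6.53, 7.19, 8.46 and 8.97, a range that covered nearly all other groups. No comparison of Pla2g4a had an exact permutation p under 0.05, and the lowest was 0.130, for SD nerves at 24 against 16 weeks (higher by 0.80, SE 0.44). Pla2g4a correlated with fibroblast (0.68) and macrophage (0.78) marker levels over the 53 samples.

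Pla2g6, the calcium-independent phospholipase A2 whose loss causes infantile neuroaxonal dystrophy, had a pooled SD within groups of 0.20. Its group means on the log2 scale lay between 9.57 (HFD-STZ-DR) and 9.84 (SD at 24 weeks). HFD-DR nerves were lower than HFD nerves by 0.19 (SE 0.09, exact permutation p = 0.0484, limma adjusted p = 0.737). HFD-STZ-DR nerves were lower than SD nerves by 0.26 (SE 0.11, exact permutation p = 0.0413, limma adjusted p = 0.492) and lower than HFD-STZ nerves by 0.21 (exact permutation p = 0.114). Within runs of library numbers, Pla2g6 was lower for HFD-STZ-DR than HFD-STZ nerves in 6 of 6 runs (exact sign-flip p = 0.0312), while the difference of HFD-DR from HFD nerves had p = 0.0625 by that exact test.

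Pla2g7 kept its group means between 12.96 and 13.38 (log2). It was lower at 24 than at 16 weeks by 0.27 in SD nerves (log2; SE 0.10, exact permutation p = 0.0249, limma adjusted p = 0.449) and by 0.17 in HFD nerves (SE 0.07, exact permutation p = 0.0169, limma adjusted p = 0.808). In HFD-STZ nerves the age difference was -0.01 (exact permutation p = 0.964), with replicate 7 at 24 weeks standing apart at 13.87. The Schwann cell marker level was lower at 24 weeks by 0.33 in SD, 0.27 in HFD and 0.26 in HFD-STZ nerves. In each, 6 of 6 markers were lower, and the part of this level was not tested. Between diets at 24 weeks, differences of Pla2g7 from SD nerves ran from -0.15 (HFD-DR) to 0.08 (HFD-STZ).

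Pla2g15, the lysosomal phospholipase A2, was lower after reversal. HFD samples at 24 weeks ran from 9.67 through 10.54 to 11.11 (log2) and HFD-DR samples from 9.64 through 9.90 to 10.32. The mean was lower in HFD-DR than in HFD nerves by 0.50 (log2; SE 0.20, exact permutation p = 0.0402, limma adjusted p = 0.660). In HFD-STZ nerves, samples ran from 9.82 through 10.36 to 10.85, and in HFD-STZ-DR nerves from 9.55 through 9.98 to 10.35, lower by 0.37 (SE 0.16, exact permutation p = 0.0493, limma adjusted p = 0.694). The disease groups did not exceed SD nerves as clearly, by 0.34 for HFD (exact permutation p = 0.149) and by 0.16 for HFD-STZ (exact permutation p = 0.324). Over 53 samples Pla2g15 correlated at 0.87 with the macrophage marker level, which was lower by 0.56 in HFD-DR than in HFD nerves and by 0.28 in the comparison of HFD-STZ-DR with HFD-STZ nerves, with 6 of 6 markers lower in each. Pla2g15 also correlated at 0.76 with the adipocyte marker level, whose mean log2 differences in these comparisons were -1.59 and -2.33, with 6 of 6 lower in each. The part of RNA from these cell types in the differences of Pla2g15 was not tested.

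Lpcat3, an acyltransferase of the endoplasmic reticulum that puts polyunsaturated acids onto lysophosphatidylcholine, had its highest means in SD nerves, 10.85 ± 0.21 (n = 8) at 24 weeks and 10.84 ± 0.18 (n = 5) at 16 weeks on the log2 scale. At 16 weeks, SD samples had log2 values of 10.61, 10.75, 10.88, 10.87 and 11.10 and HFD-STZ samples of 10.54, 10.30, 10.70, 10.47 and 10.72, lower by 0.30 (SE 0.11, exact permutation p = 0.0317, limma adjusted p = 0.576). HFD-STZ-DR samples at 24 weeks ran from 10.27 through 10.50 to 10.57, and SD samples from 10.55 through 10.83 to 11.20, so that the groups overlapped only at the edge. That difference was -0.40 (log2; SE 0.09, exact permutation p = 0.00133, limma adjusted p = 0.313), the next smallest exact p among these genes after that of Pla2g2e for HFD against SD nerves at 24 weeks. Lpcat3 was also lower in HFD-DR than in SD nerves by 0.25 (SE 0.09, exact permutation p = 0.0235, limma adjusted p = 0.925) and for HFD-STZ-DR than HFD-STZ nerves by 0.21 (SE 0.08, exact permutation p = 0.0196, limma adjusted p = 0.619). Adipocyte and macrophage markers were lower in HFD-STZ-DR than in SD nerves too, with mean log2 differences of -1.40 and -0.42. In each list, 6 of 6 markers were lower. Both levels were also lower in HFD-DR than in SD nerves (-0.40 and -0.24). They were lower after reversal in the HFD-STZ model (-2.33 and -0.28). In HFD-STZ nerves at 16 weeks both were instead higher than in SD nerves, by 1.20 and 0.12. Of the markers, 6 of 6 and 4 of 6 were higher. Adipocyte markers were also higher than in SD nerves at 24 weeks, by 1.19 in HFD and 0.93 in HFD-STZ nerves. There Lpcat3 differed by -0.13 and -0.19. With group means removed, Lpcat3 correlated at 0.71 with both the adipocyte and the endothelial marker level over 53 samples, and the part of these cell types was not tested. In HFD nerves at 24 weeks its values spread from 10.24 to 11.28, the full range of the gene over all samples.

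Ordered by group mean, the genes did not share an order. Both Pla2g2e and Lpgat1 had HFD nerves at 24 weeks highest and SD nerves at 16 weeks lowest. For Pla2g2e the order on the log2 scale went from HFD at 24 weeks (4.88) to HFD at 16 weeks (4.68), HFD-STZ at 24 weeks (4.61), HFD-STZ at 16 weeks (3.76), HFD-DR (3.53), SD at 24 weeks (3.19), HFD-STZ-DR (3.06) and SD at 16 weeks (2.94). Of the 7 gaps between neighbours, 1 was above the pooled SD within groups of 0.70, that between the 2 HFD-STZ ages (0.86). For Lpgat1, the 1 gap above its pooled SD of 0.63 lay between HFD nerves at 16 weeks (12.08) and SD nerves at 24 weeks (11.35). For the other 7 genes, no neighbours in the order differed by more than the pooled SD.

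Across the 14 comparisons, 0 of the 123 tests of these genes by limma had an adjusted p under 0.05, and 3 pairs were not tested because Pla2g2e lay under the limit. By the exact permutation test, which is not adjusted, 25 of 126 had p under 0.05, against 7.47% of such tests over all genes that passed the filter. The 126 include the 3 pairs that did not pass it. Among the 25 is Pla2g2e for HFD against SD nerves at both ages, HFD-STZ against SD at 24 weeks and HFD-STZ-DR against HFD-STZ nerves. There it passed the filter only through the disease groups. The genes were also chosen with earlier results of these data known, so the count of 25 is a description. The 14 comparisons share samples, so these counts are not independent. Few genes of any kind passed limma's adjusted test. The share of all genes tested that passed was 0.121% for HFD against SD nerves at 24 weeks, 0.0336% for HFD-STZ against SD, 0.0108% for HFD-DR against HFD and 0.084% for its HFD-STZ counterpart. It was 0.00557% for HFD against SD nerves at 16 weeks, 0.0654% for HFD nerves at 24 against 16 weeks and 0% in the other 8 comparisons.

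At an unadjusted limma p under 0.05, the counts of these genes are given beside the share of all genes. The set was chosen with earlier results of these data known, and the study had named Pla2g2e and Lpgat1 among its changed genes. A count above that share is therefore no test of the set. Pla2g2e is in the counts for HFD and HFD-STZ against SD nerves, and in that comparing HFD-STZ-DR with HFD-STZ nerves, having passed the filter only through the disease groups, and without it the counts are 2 of 8, 1 of 8 and 3 of 8 at 24 weeks and 1 of 8 and 2 of 8 at 16 weeks. At 24 weeks there were 3 of 9 for HFD against SD nerves (9.05% of all genes), 2 of 9 for HFD-STZ against SD (5.99%), 0 of 9 for HFD-STZ against HFD (5.59%), 3 of 9 for HFD-DR against HFD (6.72%) and 4 of 9 for HFD-STZ-DR against HFD-STZ nerves (6.48%). Further, there was 1 of 9 for HFD-DR against SD (5.14%), 4 of 8 for HFD-STZ-DR against SD (9.16%) and 1 of 8 for HFD-STZ-DR against HFD-DR nerves (3.58%). At 16 weeks there were 2 of 9 for HFD against SD (8.55%), 3 of 9 for HFD-STZ against SD (8.41%) and 1 of 9 for HFD-STZ against HFD nerves (4.88%). For 24 against 16 weeks there were 2 of 8 in SD (10.5%), 2 of 9 in HFD (5.9%) and 1 of 9 in HFD-STZ nerves (12.5%). The median difference over the 9 genes was 0.14 (log2) for HFD against SD nerves at 24 weeks, against 0.01 over all genes, and -0.21 in the comparison of HFD-STZ-DR with HFD-STZ nerves, against 0.01. In the comparisons of reversal with disease, 8 of 9 genes were lower in each, where the median difference over all genes was 0.00 (HFD-DR) and 0.01 (HFD-STZ-DR). The share of all genes that were lower was not counted. Pla2g4a, among the 8 for HFD-STZ-DR, differed by -0.01 only, and the 9 genes are correlated over these samples. In no comparison were the samples of both groups fully separate for any of the 9 genes, which held for 0.398% of the tests over all genes.

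Whether an effect differed between ages or models was tested as an interaction. The HFD effect on Pla2g2e at 24 weeks less that at 16 weeks was -0.04 (log2; SE 0.55), and on Lpgat1 -0.04 (SE 0.51), each with a limma adjusted p of 1.000. The HFD-STZ effect was larger at 24 weeks by 0.61 (SE 0.51, limma adjusted p = 0.766) for Pla2g2e and by 0.39 (SE 0.37, limma adjusted p = 0.792) for Lpgat1. The effect of reversal in HFD-STZ less that in HFD nerves was -0.20 (SE 0.55) for Pla2g2e and 0.03 (SE 0.50) for Lpgat1, with limma adjusted p of 1.000 for both. Of all genes, 0% passed any of the 3 interactions. HFD-STZ and HFD nerves themselves differed in Pla2g2e by -0.92 at 16 weeks (SE 0.41, exact permutation p = 0.0669) and by -0.27 at 24 weeks (SE 0.46, exact permutation p = 0.584).

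Among themselves, Pla2g2e and Lpgat1 had the highest correlation over the 53 samples (Pearson 0.87, and 0.76 with group means removed), followed by Pla2g15 with Lpgat1 (0.79), Pla2g4a with Pla2g15 (0.70) and Pla2g2d with Pla2g15 (0.70). The lowest were Pla2g4a with Pla2g7 (-0.66) and Pla2g5 with Pla2g2d and with Pla2g4a (-0.55 for both). Over all 18060 other genes, those most like Lpgat1 by Pearson correlation in 53 samples were Mmd (0.97), Npr3 (0.96) and Gm5627 (0.94), and those most like Pla2g2e were Slc5a7 (0.89), Gm5627 (0.88) and 1700047G03Rik (0.88), so that Gm5627 stands in both lists. Most like Pla2g15 were Man2b1 (0.94), Unc93b1 (0.92) and Pik3ap1 (0.91). Most like Pla2g4a were Dpp4 (0.92), Ddr2 (0.92) and Medag (0.91), and most like Pla2g5 were Frzb (0.88), Serpind1 (0.84) and 6030407O03Rik (0.84). For Pla2g7 they were Trappc2 (0.87), Ostf1 (0.87) and Rab11a (0.85), for Lpcat3 Pcx (0.82), Myadm (0.80) and B3gnt3 (0.79), for Pla2g2d Mmp9 (0.81), Gstt1 (0.80) and Hsd11b1 (0.80), and for Pla2g6 Dolpp1 (0.70), Nkiras2 (0.69) and Prkaca (0.69).

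The rest of the pathway was described by 5 lists with 58 symbols, of which 57 were found, the missing symbol being a newer name of Taz: other phospholipases A2, other lysophospholipid acyltransferases, enzymes of lysophospholipid breakdown, receptors of lysophospholipids and PAF, and acyl-CoA synthetases, which activate fatty acids before they are joined to a lysophospholipid. By limma with Benjamini-Hochberg adjustment, 0 of the 57 were called in any comparison. Of the 18 other phospholipases A2, 11 were tested for HFD against SD nerves at 24 weeks, with a median difference of 0.05 (log2). At an unadjusted limma p under 0.05, 2 of the 11 were higher and 0 lower, beside 9.05% of all genes in either direction. Of 14 other acyltransferases found, 13 were tested there, with a median of -0.07 and 0 at that p in either direction. The 8 receptors tested had a median difference of 0.22 for HFD and 0.15 for HFD-STZ against SD nerves, and of -0.30 and -0.19 after reversal, against 0.01 or less over all genes in size.

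By the smallest unadjusted p, 5 genes of these lists were named in the comparisons of disease and reversal at 24 weeks. Lpar6, a receptor of lysophosphatidic acid, had a higher mean in HFD-STZ than in SD nerves, by 0.34 (log2; SE 0.08, exact permutation p = 0.000311, limma adjusted p = 0.301) and a lower mean for HFD-STZ-DR than HFD-STZ nerves, by 0.34 (SE 0.10, exact permutation p = 0.00333, limma adjusted p = 0.276). In the HFD model, Lpar6 was higher than in SD nerves by 0.25 at 24 weeks (exact permutation p = 0.021). HFD-DR nerves differed from HFD nerves in Lpar6 by -0.13 (exact permutation p = 0.402). At 16 weeks its differences from SD nerves were 0.12 in HFD and -0.01 in HFD-STZ nerves. Pla2g2c, a further secreted phospholipase A2, was higher at 24 weeks by 0.39 in HFD and by 0.46 in HFD-STZ than in SD nerves (limma adjusted p = 0.517 and 0.813). Its SD mean at 24 weeks, a log2 value of 3.32, stood at the limit used for testing. At 16 weeks its differences from SD nerves were -0.39 in HFD and -0.03 in HFD-STZ nerves. After reversal it differed from the disease groups by -0.06 (HFD-DR) and -0.05 (HFD-STZ-DR). Ptafr, the PAF receptor, was lower in HFD-DR than in HFD nerves by 0.80 (SE 0.27, exact permutation p = 0.0233, limma adjusted p = 0.606). Prdx6, a peroxiredoxin with phospholipase A2 activity, was lower in that comparison by 0.30 (SE 0.10, exact permutation p = 0.0146, limma adjusted p = 0.605). Lyplal1, a lysophospholipase-like protein, was lower for HFD-STZ-DR than HFD-STZ nerves by 0.43 (SE 0.11, exact permutation p = 0.00167, limma adjusted p = 0.184).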

How the data were processed

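SCN RNA-seq values were analysed for 53 samples in 8 groups, set by the age, diet, STZ and dietary reversal labels. The deposited files hold 1 log2 value per gene and sample. According to the sources, the authors aligned reads to mm10 with HISAT2, counted them per gene with featureCounts and used DESeq2. The step that made the log2 values is not given in the sources used here, and they show no counts, so depth per sample is unknown and count models were not used. The labels and the methods name different library kits, and the methods call the libraries non-stranded with polyA selection.

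Genes with a mean under a log2 value of 3.32 (10 on the linear scale) in the samples compared, and 25 genes with a value above 22 in any sample, were left out. Each comparison was fitted with limma (version 3.58.1, R 4.3.3, trended variance prior) on its own samples, with p-values corrected over the genes tested (Benjamini-Hochberg, threshold 0.05). An exact permutation test (2-sided, unadjusted) was run on the means of each single gene. Folds are log2 differences converted to the linear scale. The script was tested on simulated data. Tables were made with Python 3.11.15 and pandas 2.3.3. The genes followed and all lists were chosen with earlier results of these data known. Genes named from the pathway lists have the 2 smallest unadjusted p in a comparison of disease or reversal at 24 weeks, and 3 genes most alike by Pearson correlation are named for each gene. Alternatives were other filters, variance priors, scaling, fits of all 8 groups with and without the run of library numbers, and leaving out each sample. One marker of dendritic and lymphoid cells is not reported here, and the level of that list was taken over the other 5.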

Additional observations from a re-analysis of the deposited data

Results flagged for a closer look

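The highest or lowest sample of each group was compared with its nearest neighbour by Dixon's gap test, in 72 groups of values, of which chance flags about 1 in 20. In 4 of them a sample stood apart. HFD-STZ replicate 7 at 24 weeks was the highest of its group in Pla2g6 (log2 value 10.48, the next sample 9.77) and in Pla2g7 (13.87, the next 13.28). HFD-DR replicate 7 was the highest of its group in Pla2g7 (13.31, the next 12.99), and both samples belong to the seventh run of library numbers. HFD-DR replicate 5 was the highest of its group in Lpcat3 (10.90, the next 10.66).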

How the results depend on the processing

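Of 150 differences of a gene in a comparison or interaction, 41 changed sign in at least 1 alternative, all of them 0.20 or less in size (log2) as reported and none with an adjusted p under 0.05. Every difference of Pla2g2e and Lpgat1 between disease and SD nerves, or between reversal and disease, kept its direction in all alternatives that gave it a value. A value above the limit in every sample left Pla2g2e out of all these comparisons. Counts of the 9 genes called by limma went from 0 to 1 for HFD against SD nerves at 24 weeks with all 8 groups in 1 fit, with and without the run of library numbers, and in the comparison of HFD-STZ-DR with HFD-STZ nerves in that fit without the run. Leaving out 1 sample gave counts from 0 to 1 for HFD and for HFD-STZ against SD nerves at 24 weeks and from 0 to 2 for HFD-STZ-DR against HFD-STZ nerves. The labels give no replicate numbers to pair samples by. Differences within runs of library numbers were paired by run, and their exact p-values stand in the report.

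Over all genes, the fit of all 8 groups called 62 genes in place of 22 for HFD against SD nerves at 24 weeks, 16 in place of 6 for HFD-STZ against SD, 18 in place of 2 for HFD-DR against HFD and 47 in place of 15 for HFD-STZ-DR against HFD-STZ nerves, and with the run of library numbers 98, 17, 27 and 32. A value above the limit in every sample left 7, 3, 1 and 1 of these counts, and no filter on low values 21, 4, 0 and 1. Centring each sample gave 42, 6, 8 and 13. With genes above 22 kept, 5 genes were called for HFD-STZ-DR against HFD-STZ nerves, with robust variances 5 and without the trend 2. For HFD-DR against HFD nerves, the count was 0 with robust variances and 0 without the trend. At 16 weeks, HFD against SD nerves had 7 genes in place of 1 in the fit of all 8 groups and 16 with the run. For 24 against 16 weeks, those fits called 45 and 122 genes in SD nerves and 13 and 30 in HFD-STZ nerves in place of 0, and 8 and 22 in place of 12 in HFD nerves, where centring gave 6 and a prior without trend 1. The cause was not tested.

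Centred on each sample's median, the sign turned for Pla2g5 in HFD-STZ against SD nerves at 16 weeks (-0.01) and in HFD-DR against SD nerves (0.01), for Pla2g4a in HFD-STZ-DR against HFD-STZ nerves (0.04), for Pla2g6 (-0.01) and Lpcat3 (-0.07) in SD nerves at 24 against 16 weeks, for Pla2g2e in the age difference of the HFD effect (0.00) and for Pla2g6 in the model difference of the DR effect (0.01). With all 8 groups and the run of library numbers, it turned for Pla2g5 in HFD-STZ against SD nerves at 16 weeks (-0.01), Pla2g4a in HFD-STZ-DR against HFD-STZ nerves (0.03), Lpcat3 in SD nerves at 24 against 16 weeks (0.00) and Pla2g2d in the age difference of the HFD-STZ effect (-0.04). Within runs, Pla2g4a differed by 0.06 between HFD-STZ-DR and HFD-STZ nerves. Over the longest transcript in place of all exons, levels per kilobase moved to 12.09 for Pla2g7, 9.43 for Lpcat3, 9.14 for Pla2g5, 7.99 for Pla2g6 and 6.28 for Pla2g4a.

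With each sample left out in turn, differences that changed sign had these ranges (log2). The difference of Pla2g2d ran from -0.16 to 0.07 for HFD-STZ against HFD at 16 weeks, from -0.04 to 0.28 for HFD-DR against SD, from -0.23 to 0.04 for HFD-STZ-DR against SD, from -0.14 to 0.14 for the age difference of the HFD-STZ effect and from -0.13 to 0.20 for the model difference of the DR effect. The difference of Pla2g2e ran from -0.02 to 0.42 for HFD nerves at 24 against 16 weeks, from -0.27 to 0.18 for the age difference of the HFD effect and from -0.42 to 0.02 for the model difference of the DR effect. The difference of Pla2g4a ran from -0.25 to 0.12 for HFD-STZ against HFD at 16 weeks, from -0.31 to 0.08 for HFD-STZ against HFD at 24 weeks, from -0.12 to 0.26 for HFD-DR against HFD, from -0.19 to 0.13 for HFD-STZ-DR against HFD-STZ, from -0.28 to 0.01 for HFD-DR against SD, from -0.03 to 0.35 for HFD nerves at 24 against 16 weeks, from -0.08 to 0.34 for HFD-STZ nerves at 24 against 16 weeks and from -0.28 to 0.11 for the model difference of the DR effect. The difference of Pla2g5 ran from -0.15 to 0.01 for HFD against SD at 16 weeks, from -0.06 to 0.10 for HFD-STZ against SD at 16 weeks, from -0.06 to 0.06 for HFD-DR against SD and from -0.10 to 0.01 for HFD nerves at 24 against 16 weeks. The difference of Pla2g6 ran from -0.06 to 0.07 for HFD against SD at 16 weeks, from -0.07 to 0.04 for HFD against SD at 24 weeks, from -0.08 to 0.05 for the age difference of the HFD effect, from -0.05 to 0.09 for the age difference of the HFD-STZ effect and from -0.07 to 0.07 for the model difference of the DR effect. The difference of Pla2g7 ran from -0.05 to 0.00 for HFD against SD at 24 weeks, from -0.02 to 0.14 for HFD-STZ against SD at 24 weeks, from -0.13 to 0.03 for HFD-STZ-DR against HFD-STZ, from -0.01 to 0.06 for HFD-STZ-DR against SD and from -0.10 to 0.06 for HFD-STZ nerves at 24 against 16 weeks. The difference of Pla2g15 ran from 0.00 to 0.23 for HFD-STZ against SD at 16 weeks, from -0.12 to 0.04 for HFD-STZ-DR against HFD-DR and from -0.07 to 0.16 for the age difference of the HFD-STZ effect. The difference of Lpgat1 ran from -0.15 to 0.05 for HFD-DR against SD, from -0.25 to 0.18 for the age difference of the HFD effect and from -0.18 to 0.24 for the model difference of the DR effect. The difference of Lpcat3 ran from -0.14 to 0.03 for HFD-STZ against HFD at 24 weeks, from -0.05 to 0.07 for SD nerves at 24 against 16 weeks, from -0.05 to 0.13 for HFD nerves at 24 against 16 weeks and from -0.06 to 0.12 for the age difference of the HFD effect.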

Other observations

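The other lysophospholipid acyltransferases were compared by age. At an unadjusted limma p under 0.05, 6 of 13 tested were lower at 24 than at 16 weeks in SD nerves, 6 of 13 in HFD nerves and 5 of 13 in HFD-STZ nerves, with 1 of 13 higher (Agpat2, in HFD-STZ nerves), against 10.5%, 5.9% and 12.5% of all genes in either direction. None passed limma's adjusted test. Mboat1 and Mboat2, members of the membrane-bound O-acyltransferase family that act on lysophospholipids, were lower in all 3 comparisons at that p and are named after their values were seen. Mboat1 was lower by 0.39 (log2; SE 0.09) in SD, by 0.37 (SE 0.08) in HFD and by 0.44 (SE 0.10) in HFD-STZ nerves, with limma adjusted p of 0.248, 0.164 and 0.279. Mboat2 was lower by 0.20 (SE 0.08), 0.25 (SE 0.08) and 0.23 (SE 0.10). The Schwann cell marker level was lower at 24 weeks by 0.33, 0.27 and 0.26 in the same comparisons, and its part was not tested.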
